A study of Homo sapiens with 26 samples.

Results

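Interferon-stimulated genes were followed in MCF10A, an immortalised, non-tumorigenic line of human mammary epithelial cells, over the first hours of exposure to a growth factor and a glucocorticoid. The set holds 39 genes, taken as the probesets of an exon array whose platform annotation gives exactly one of the 39 symbols and no other. All 39 had at least 1 such probeset, and 37 had the 3 probesets above background that a gene level needed here, of 16600 genes measured in all. RNA was hybridised to 26 Affymetrix Human Exon 1.0 ST arrays. Cells received epidermal growth factor together with dexamethasone (EGF+DEX), dexamethasone alone (DEX, a synthetic glucocorticoid, 100 nM) or epidermal growth factor alone (EGF, 10 ng/ml), each for 20, 40, 60, 120 or 240 min, and untreated cells stood for 0 min. Every group, untreated cells included, came from cells grown with insulin, cholera toxin, horse serum, hydrocortisone (a glucocorticoid) and EGF and then starved overnight. There were 2 arrays for untreated cells and for each treatment at 20, 40 and 60 min, and 1 array for each treatment at 120 and 240 min. No untreated array was matched to the later times, so that time in the stimulation medium and treatment cannot be told apart against untreated cells, whereas EGF+DEX can be set against EGF or DEX at the same times. No interferon was added, and all arrays come from one cell line.

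Type I interferons bind a receptor pair whose kinases, JAK1 and TYK2, phosphorylate STAT2. With IRF9 it forms part of a complex that binds a short DNA element, the interferon-stimulated response element (ISRE), and switches on the antiviral genes studied here, while interferon gamma acts on a second element, the GAS site. Glucocorticoids act through the glucocorticoid receptor, a transcription factor that binds its own response element and is widely known for damping inflammatory genes.

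Markers of mammary epithelium were detected more fully than those of other cell types. Of 12 mammary epithelial markers 11 were measured, with 94.9% of their probesets above background, against 46.8% for 12 leukocyte markers and 57.3% for 10 fibroblast and endothelial markers. Single genes went the other way. The fibroblast marker DCN (mean log2 level 8.01) and the leukocyte marker CD14 (7.17) read above the epithelial marker EPCAM (6.99), though levels of different genes are not strictly comparable on arrays. The treatments could be read in reference genes: EGF raised 6 of 6 listed EGF targets, and DEX raised 4 of 6 listed glucocorticoid receptor targets (DUSP1, FKBP5, SGK1 and TSC22D3). Both readings used limma's moderated tests with Benjamini-Hochberg adjustment over all genes, of which 0.729% were called with EGF and 3.54% with DEX. The lists were not specific to a treatment. EGF also raised DUSP1 and PER1 of the glucocorticoid receptor list, and DEX raised FOS and lowered DUSP6, EGR1, HBEGF and IER3 of the EGF list. Of the 12 leukocyte markers 7 were measured, and none of them was called in any of 9 comparisons. Of all genes 8.49% were called in at least 1, so that the absence of calls among 7 genes gives no result. The mean of the 7 lay between 5.89 and 6.37 on the log2 intensity scale over the 26 arrays. The fibroblast marker DCN was called higher with DEX (1.26 on the log2 scale at 240 min, adjusted p = 0.00536 over all times) and the basal epithelial factor TP63 lower (-1.28 at 240 min, adjusted p = 0.00142 over all times). With EGF+DEX, TP63 (-1.24 at 240 min, adjusted p = 8.86e-04 over all times) and the basal keratins KRT14 (-0.74 at 120 min, adjusted p = 0.0160 over all times) and KRT17 (-0.70 at 240 min, adjusted p = 0.0227 over all times) were lower. Set against EGF at 120 and 240 min, EGF+DEX had lower TP63 (-1.13, adjusted p = 1.76e-04) and lower LAMB3, a basement membrane gene (-0.68, adjusted p = 0.00969). Whether these marker changes have a part in the results below was not tested.

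Promoter windows of the members show the element that defines the family. RefSeq (GRCh38.p14) gave a window of 250 bases before to 50 bases after the annotated start for 30 of the 39 genes. The ISRE was searched as GAAA, any 2 bases and GAAA again, on both strands, and 17 of the 30 windows (56.7%) held at least 1 match, against 1255 of 35116 promoter windows in all (3.57%). A GAS-like motif, TTCNNNGAA, was found in 8 windows (26.7%, against 7.66% of all). A minimal core of the glucocorticoid receptor element, ACANNNTGT, was found in 1 window, that of HERC5 (3.33%, against 5.37% of all). ISRE matches overlapped one another or a GAS match in 5 members, which are IFI27, IFIH1, ISG15, BST2 and HERC5. The windows of SP110, STAT2 and DDX58, 3 of the 5 genes that changed in these arrays, held no match to any of the motifs, which says only that these letters are not in those windows. The window of IFI44L, the gene with the largest rise, is shown in full because it holds 2 ISRE matches, at positions -164 and -73 from the start site, inside an exact repeat of 85 bases whose copies begin 91 bases apart. It lies at chr1:78620198-78620497 on the plus strand, and the capitals mark the matches.
IFI44L: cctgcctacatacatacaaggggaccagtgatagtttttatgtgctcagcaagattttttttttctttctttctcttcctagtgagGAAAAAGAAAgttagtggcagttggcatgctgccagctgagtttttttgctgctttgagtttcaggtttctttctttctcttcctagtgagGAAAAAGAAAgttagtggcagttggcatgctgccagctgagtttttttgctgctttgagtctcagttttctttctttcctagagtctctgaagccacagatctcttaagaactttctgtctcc

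Short stretches around single ISRE matches are given for other members, to show the element in genes with different values in these arrays. IFI44 is the neighbour of IFI44L on chromosome 1, IFIT3 fell in 1 comparison, and ISG15 and MX1 are classical interferon targets that were not called. A match on the other strand reads as TTTC, any 2 bases and TTTC, and capitals mark the match.
IFI44: acactgagTTTCAGTTTCctttctct
IFIT3: taaattagTTTCACTTTCcagtttcc
ISG15: gggaaaggGAAACCGAAActgaagcc
MX1: gcagaaatGAAACCGAAActgaattg

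**Figure D1:**
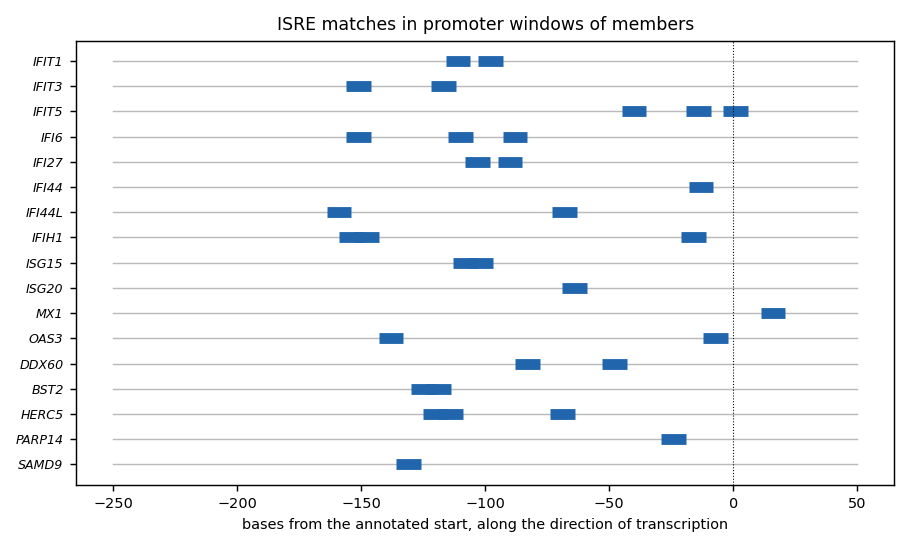
Positions of ISRE matches (blue blocks) in the promoter windows of the 17 members that held at least 1, with bases from the annotated start on the horizontal axis (0 is the start, negative is upstream) and a row per gene. Matches began between positions -164 and 11, and 12 of the 17 members had 2 or more.

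The interferon-stimulated genes that changed within 240 min went different ways. In 9 comparisons, 5 of the 37 measured members (13.5%) were called in at least 1, against 8.49% of all 16600 genes, and 32 were called in none. A call here means an adjusted p under 0.05 in limma and a change of at least 1.5-fold. Against untreated cells over all times the adjusted p comes from an F-test over the 5 times. The difference printed with it is the largest of the 5 or, where called a mean, the average over the 5 times. The F-test asks for a change at any time and is not a test of that mean, so its p cannot be read from the mean and SE. IFI44L and SP110 rose with DEX, DDX58 fell with DEX, STAT2 fell with EGF at the late times and with EGF+DEX, and IFIT3 was lower with EGF+DEX than with EGF. The 32 others had differences averaged over the times of each comparison between -0.74 and 0.69 on the log2 scale. Over the 26 arrays their levels spanned 0.33 to 1.89 on that scale (median 0.76), and 27 of them spanned less than 1. In bulk RNA, fewer expressing cells and less RNA per cell cannot be told apart.

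Against untreated cells, 3 members or fewer were called under each treatment. For EGF+DEX, 2 of 37 members were higher and 1 lower, against 4.87% of all 16600 genes called (2.39% higher, 2.48% lower). For DEX, 2 were higher and 1 lower, against 3.54% of all genes (1.62% higher, 1.92% lower). For EGF, no member was called in limma, against 0.729% of all genes (0.572% higher, 0.157% lower). An unadjusted p under 0.05 was found for 4 of 37 members, near the share of all genes (10.9%). Limma with a variance trend and robust fit called 1, STAT2. Each of these counts of called members rests on 3 genes or fewer and gives no result about the set. Median differences were -0.09 with EGF+DEX, -0.08 with DEX and -0.09 with EGF, beside medians of -0.04, -0.06 and -0.01 over all genes, and 25, 27 and 28 of 37 members had a mean difference below 0, beside 58.2%, 64.1% and 51.8% of all genes. These comparisons share the 2 untreated arrays.

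**Figure D2:**
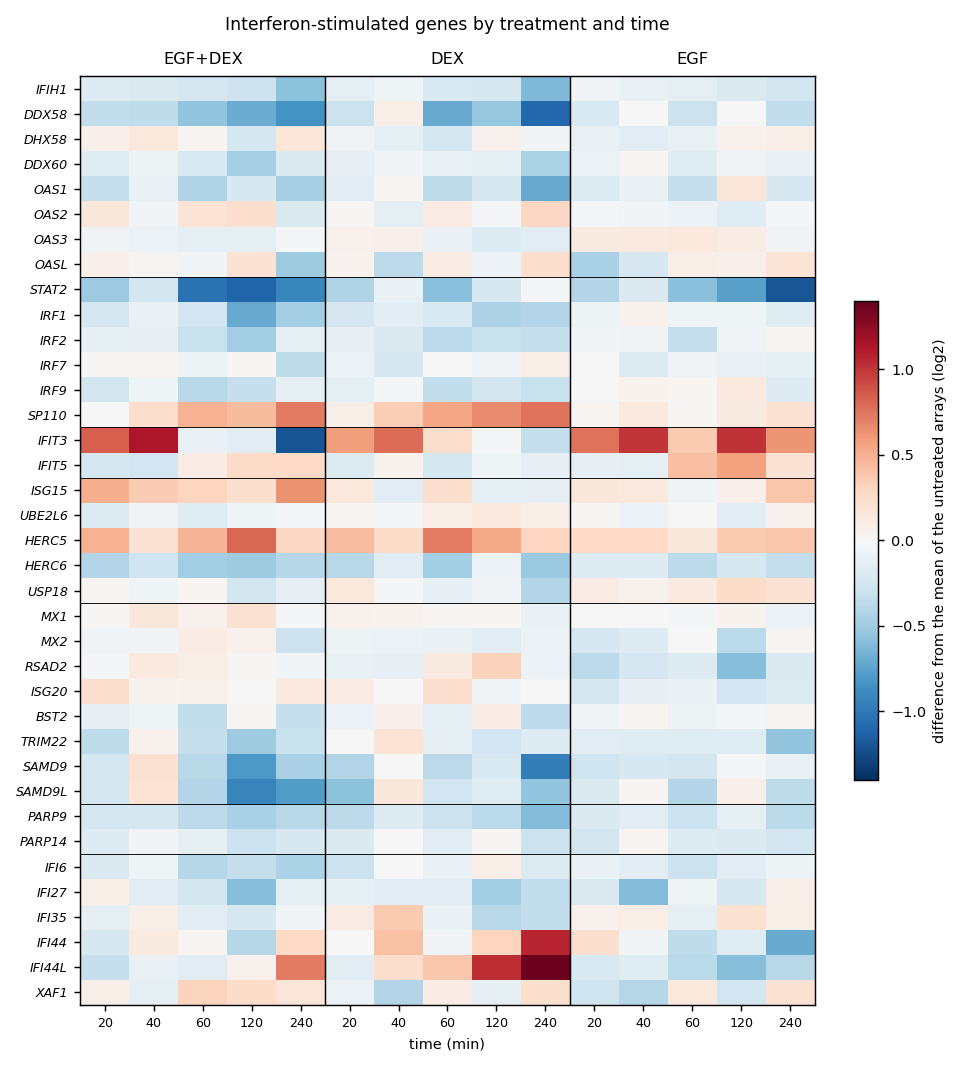
Difference of each measured member (one per line, grouped by role) from the mean of the 2 untreated arrays, in log2 units as colour, for EGF+DEX, DEX and EGF at 20, 40, 60, 120 and 240 min. IFI44L and SP110 are higher at the later times of DEX, DDX58 lower with DEX and STAT2 lower at the later times of EGF+DEX and EGF, while most other lines stay pale and IFIT3 is measured against 2 untreated arrays that differ widely.

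The transcription factors among the members include 2 subunits of the interferon complex, STAT2 and IRF9. STAT2, the subunit that brings the activation domain to that complex, read 6.56 with EGF+DEX at 120 min and 6.76 at 240 min, 6.92 and 6.48 with EGF, and 7.45 and 7.65 with DEX, against 7.70 and 7.65 in untreated cells. At 60 min it read 6.85 and 6.43 with EGF+DEX, 7.24 and 6.93 with EGF, and 6.96 and 7.23 with DEX. Every treated array, DEX alone included, lay below both untreated arrays. The highest DEX array (7.6520) was close to the lower untreated one (7.6525). DEX alone was 0.42 and 0.58 lower on the log2 scale at 20 and 60 min, and 0.09, 0.23 and 0.03 lower at 40, 120 and 240 min. At 20, 40 and 60 min STAT2 was 0.41, 0.20 and 0.59 lower with EGF, and 0.50, 0.25 and 1.04 lower with EGF+DEX. Under each treatment the difference was thus smaller at 40 min than at 20 or 60 min, and the cause was not tested. STAT2 fell with EGF+DEX (mean over 5 times -0.77 ± 0.14 (SE), largest difference -1.12 at 120 min, adjusted p = 0.00386 in limma), a call that all 34 alternative settings kept. With EGF it was 1.19 lower on the log2 scale at 240 min and missed the threshold over all times (adjusted p = 0.0522, mean -0.63 ± 0.14). It was called in 8 of the 34 alternatives.

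Averaged over 120 and 240 min, STAT2 fell by 0.98 ± 0.17 with EGF (adjusted p = 0.00783), where 1 of 37 members and 1.41% of all genes were called (0.873% higher, 0.536% lower). That call rests on few arrays: it was lost without untreated replicate 1 (-0.95, adjusted p = 0.0512), untreated replicate 2 (-1.0, adjusted p = 0.0890) or the EGF array of 240 min (-0.76, adjusted p = 0.134). Of the 29 STAT2 probesets above background, 29 were lower at the late times of EGF and 28 at those of EGF+DEX, with medians of -0.84 for EGF and -0.90 for EGF+DEX. Between treatments at matched times, EGF+DEX was 0.50 ± 0.09 lower than DEX (adjusted p = 0.00543), under the 1.5-fold minimum, and differed from EGF by -0.14 ± 0.09 (adjusted p = 0.270).

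SP110, a nuclear body protein of the SP100 family, read 6.56 with EGF+DEX at 120 min and 6.85 at 240 min, and 6.78 and 6.88 with DEX, against 6.25 and 6.33 with EGF and 6.25 and 6.0 in untreated cells. All 4 late arrays with DEX, alone or with EGF, lay above both untreated arrays, as did those of 40 and 60 min, while at 20 min the groups overlapped. SP110 rose with DEX by a mean of 0.48 ± 0.11 over the times and by 0.76 ± 0.17 (1.70-fold) at 240 min (adjusted p = 0.0290). With EGF+DEX the values were 0.38 ± 0.11 and 0.73 ± 0.17 (adjusted p = 0.0397). With EGF alone they were 0.11 ± 0.11 and 0.20 ± 0.17 (adjusted p = 0.940).

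Single arrays carried part of the SP110 result. Its DEX call was lost on leaving out any 1 of 5 arrays, which were untreated replicate 2, DEX at 20 min replicate 2, either DEX array of 60 min and the DEX array of 240 min (adjusted p = 0.0565 to 0.0999). The EGF+DEX call was lost for 10 arrays (adjusted p = 0.0513 to 0.142), and the largest difference was 0.49 without the EGF+DEX array of 240 min. It was also lost with replicate number as a block (adjusted p = 0.0508). Averaged over 120 and 240 min, DEX raised SP110 by 0.71 ± 0.14 (adjusted p = 0.00575), and 26 of its 28 probesets were higher. This late call was lost without untreated replicate 2 (0.58, adjusted p = 0.0803) or the DEX array of 240 min (0.66, adjusted p = 0.0771). Against EGF at all times, EGF+DEX was 0.27 ± 0.07 higher (adjusted p = 0.0209), under the fold minimum.

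No call was made for the other 4 transcription factors, IRF1, IRF2, IRF7 and IRF9. IRF1, an activator induced by interferon gamma, read 5.68 and 5.91 with EGF+DEX at 120 and 240 min and 5.95 and 5.98 with DEX, against 6.32 and 6.21 with EGF and 6.40 and 6.37 in untreated cells. Its 4 late arrays with DEX lay below all other arrays of the study. At matched late times EGF+DEX was 0.48 ± 0.12 lower than EGF (adjusted p = 0.0485), and over all times 0.30 ± 0.07 lower (adjusted p = 0.00817), both under the 1.5-fold minimum. For IRF9, the DNA-binding subunit of the interferon complex, the mean differences were -0.23 with EGF+DEX (adjusted p = 0.52), -0.21 with DEX (adjusted p = 0.60) and 0.01 with EGF (adjusted p = 0.95). IRF9 rests on its 13 bright single-symbol probesets, since 16 others carry several symbols and were left out.

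**Figure D3:**
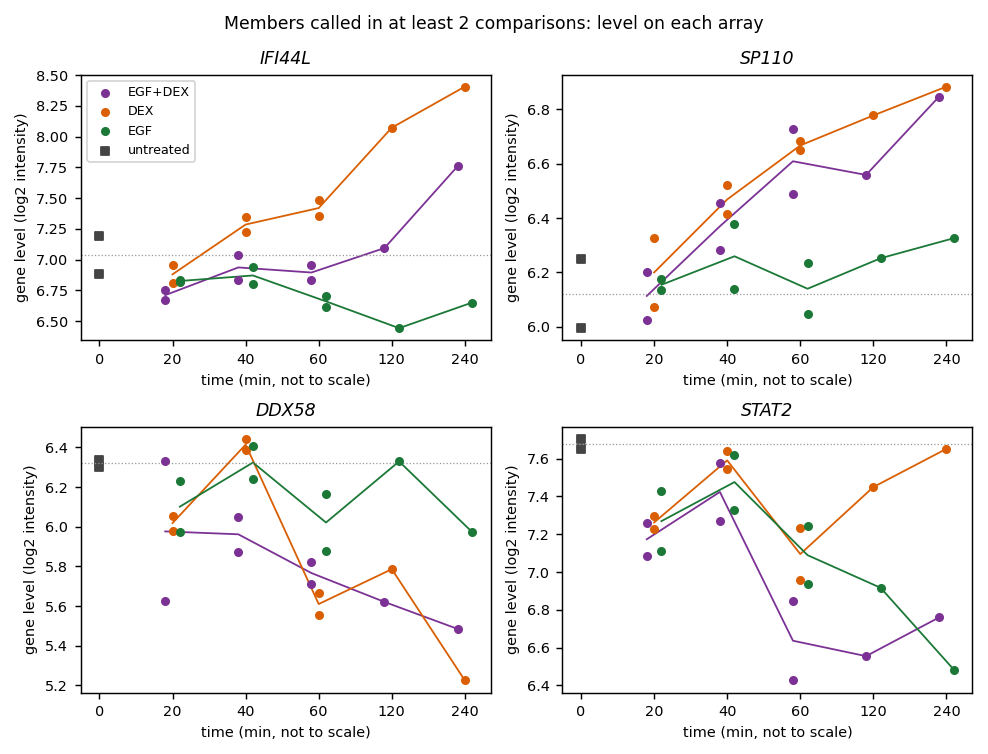
Gene level (log2 intensity) of IFI44L, SP110, DDX58 and STAT2 on each array against time in minutes (not to scale), with points for arrays, lines through means and the dotted line at the mean of the 2 untreated arrays (squares at 0 min). IFI44L reaches 8.41 with DEX at 240 min, above every other array, and STAT2 reaches 6.48 with EGF at 240 min, against 7.70 and 7.65 in untreated cells.

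Sensors of viral RNA and the enzymes that respond to it made up 8 members, of which 1 was called. DDX58 (RIG-I, current symbol RIGI) is a helicase that detects viral RNA ends. It read 5.79 with DEX at 120 min and 5.22 at 240 min, 5.62 and 5.48 with EGF+DEX, and 6.33 and 5.97 with EGF, against 6.30 and 6.34 in untreated cells. With DEX it was 5.56 and 5.66 at 60 min but 6.44 and 6.39 at 40 min. All DEX arrays of 20, 60, 120 and 240 min lay below both untreated arrays, and those of 40 min above them. A higher reading at 40 min was also seen with EGF, where differences from untreated cells were -0.22, 0.00 and -0.30 at 20, 40 and 60 min. With EGF+DEX they were -0.34, -0.36 and -0.55. The cause was not tested.

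DDX58 fell with DEX by 1.09 ± 0.22 on the log2 scale at 240 min (2.13-fold, adjusted p = 0.0109 over all times). The call was lost without the DEX array of 240 min (largest difference -0.71, adjusted p = 0.0897), with the stricter brightness filter (-0.82, adjusted p = 0.0632) and with means of probesets (-1.01, adjusted p = 0.0848). Over 120 and 240 min the difference with DEX was -0.81 ± 0.18 (adjusted p = 0.0108), lost without untreated replicate 1 (-0.83, adjusted p = 0.0722), untreated replicate 2 (-0.80, adjusted p = 0.0678) or the DEX array of 240 min (-0.53, adjusted p = 0.355). Of 12 bright probesets, 11 were lower at the late times of DEX. With EGF+DEX the mean difference from untreated cells was -0.56 ± 0.14 (adjusted p = 0.119). Against EGF at the same times EGF+DEX was 0.39 ± 0.09 lower (adjusted p = 0.0124), under the fold minimum.

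The 7 other sensors and sensing enzymes did not pass. IFIH1 (MDA5), the sensor of long double-stranded RNA, had a largest difference of -0.62 with DEX (adjusted p = 0.29). OAS1, which makes the 2-5A signal that activates RNase L, had a largest difference of -0.71 with DEX (adjusted p = 0.081). For DHX58 (LGP2), DDX60, OAS2, OAS3 and OASL the largest differences with DEX lay between -0.44 and 0.29.

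Of the 4 IFIT genes, whose proteins bind viral RNA, IFIT1 and IFIT2 could not be measured. IFIT1 had 1 of 11 probesets above background and IFIT2 had 2 of 10, with median probeset values of 3.41 and 3.64 against a background of 4.65. IFIT3, a partner that stabilises IFIT1, rests on 3 bright probesets, and its gene level was at or below background on 7 of 26 arrays. It read 4.37 with EGF+DEX at 120 min and 3.32 at 240 min, against 5.54 and 5.14 with EGF at those times. In untreated cells its arrays read 5.32 and 3.73, so that no difference from them can be read closely. Replicates of IFIT3 had an SD of 0.52, the highest among the members.

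Against EGF at matched times, the fitted difference of EGF+DEX in IFIT3 was -0.65 ± 0.22 (adjusted p = 0.0446), the 1 member called of 37 in that comparison, where 0.753% of all genes were called (0.367% higher, 0.386% lower). Its size is not exact, since 3 of the 8 EGF+DEX arrays lay below background, where the level is only a bound. The call was lost on leaving out any 1 of 13 arrays (adjusted p = 0.0542 to 0.240). Without the EGF+DEX or the EGF array of 240 min the difference was -0.36 (adjusted p = 0.240). Over 120 and 240 min alone it was -1.50 ± 0.41 (adjusted p = 0.0625), with both EGF+DEX arrays below background, and this difference was called with replicate number as a block. IFIT5, the remaining family member, was 0.15 lower with EGF+DEX than with EGF (adjusted p = 0.23).

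The ISG15 system comprises ISG15, a ubiquitin-like protein, with UBE2L6 (its conjugating enzyme), HERC5 (its ligase), HERC6 and USP18 (its protease, which also dampens interferon receptor signalling). None of the 5 was called. ISG15 lay between 6.43 and 6.91 on the 8 arrays with EGF+DEX (median 6.65), between 5.92 and 6.56 with DEX (median 6.34), between 6.07 and 6.65 with EGF (median 6.37), and at 6.26 and 6.26 in untreated cells. Its EGF+DEX arrays were thus all above both untreated arrays and overlapped those of DEX and EGF. The difference from DEX was 0.41 ± 0.08 (adjusted p = 0.00879) and that from EGF 0.27 ± 0.08 (adjusted p = 0.0300), both short of 1.5-fold. The mean difference from untreated cells over the 5 times was 0.41 ± 0.12 (adjusted p = 0.186 in the F-test).

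HERC5 had mean differences of 0.45 ± 0.13 with EGF+DEX (adjusted p = 0.118), 0.45 ± 0.13 with DEX (adjusted p = 0.135) and 0.30 ± 0.13 with EGF (adjusted p = 0.773), all on the same side. USP18 was 0.23 ± 0.06 lower with EGF+DEX than with EGF (adjusted p = 0.0207), under the fold minimum. It too has 18 probesets of several symbols that were left out.

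Among the 8 other antiviral effectors and the 2 ADP-ribosyltransferases (PARP9 and PARP14), none was called. MX1, a GTPase that blocks incoming viruses, lay between 6.06 and 6.39 on all 26 arrays, the smallest range among the 32 members without a call. For RSAD2 (viperin), which makes a chain-terminating nucleotide, EGF+DEX was 0.36 ± 0.12 above EGF (adjusted p = 0.0444), and for the exonuclease ISG20 0.28 ± 0.07 above it (adjusted p = 0.0184), both under the fold minimum. SAMD9L and SAMD9, restriction factors for poxviruses, had largest differences of -0.92 (adjusted p = 0.096) and -0.81 (adjusted p = 0.14) with EGF+DEX.

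IFI44L was the member with the largest rise. It is an interferon-inducible gene of the IFI44 family, and its protein is described as a feedback inhibitor of the antiviral response. With DEX it read 6.95 and 6.81 at 20 min, 7.35 and 7.22 at 40 min, 7.35 and 7.48 at 60 min, 8.07 at 120 min and 8.41 at 240 min, against 7.19 and 6.88 in untreated cells. The first DEX time overlapped untreated cells, and from 40 min every DEX array lay above both of them. With EGF it read 6.44 at 120 min and 6.65 at 240 min, below both untreated arrays, as were 7 of its 8 EGF arrays.

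IFI44L read lower with EGF+DEX than with DEX at each of the 5 times, a difference that did not reach 1.5-fold on average. With EGF+DEX, IFI44L read 6.75 and 6.67 at 20 min, 7.03 and 6.84 at 40 min, 6.84 and 6.95 at 60 min, 7.09 at 120 min and 7.76 at 240 min, and only the array of 240 min lay above both untreated arrays. DEX raised IFI44L by 1.37 ± 0.16 at 240 min (2.58-fold) and by a mean of 0.58 ± 0.10 over the times (adjusted p = 6.69e-05 in limma). EGF+DEX was called higher for its 240 min value of 0.72 ± 0.16 (1.65-fold, adjusted p = 0.00953), with a mean over the times of 0.04 ± 0.10. Without that 1 array the largest difference was -0.33 (adjusted p = 0.455), and without untreated replicate 2 it was 0.57 (adjusted p = 0.00822), under the fold minimum. For EGF the mean was -0.35 ± 0.10 (adjusted p = 0.311). Averaged over 120 and 240 min, DEX raised IFI44L by 1.20 ± 0.13 (adjusted p = 1.87e-05), where 3 of 37 members (IFI44L, SP110 and DDX58) and 3.67% of all genes were called (1.63% higher, 2.05% lower). Both DEX calls of IFI44L, over all times and over the late times, were kept in all 34 alternative settings.

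**Figure D4:**
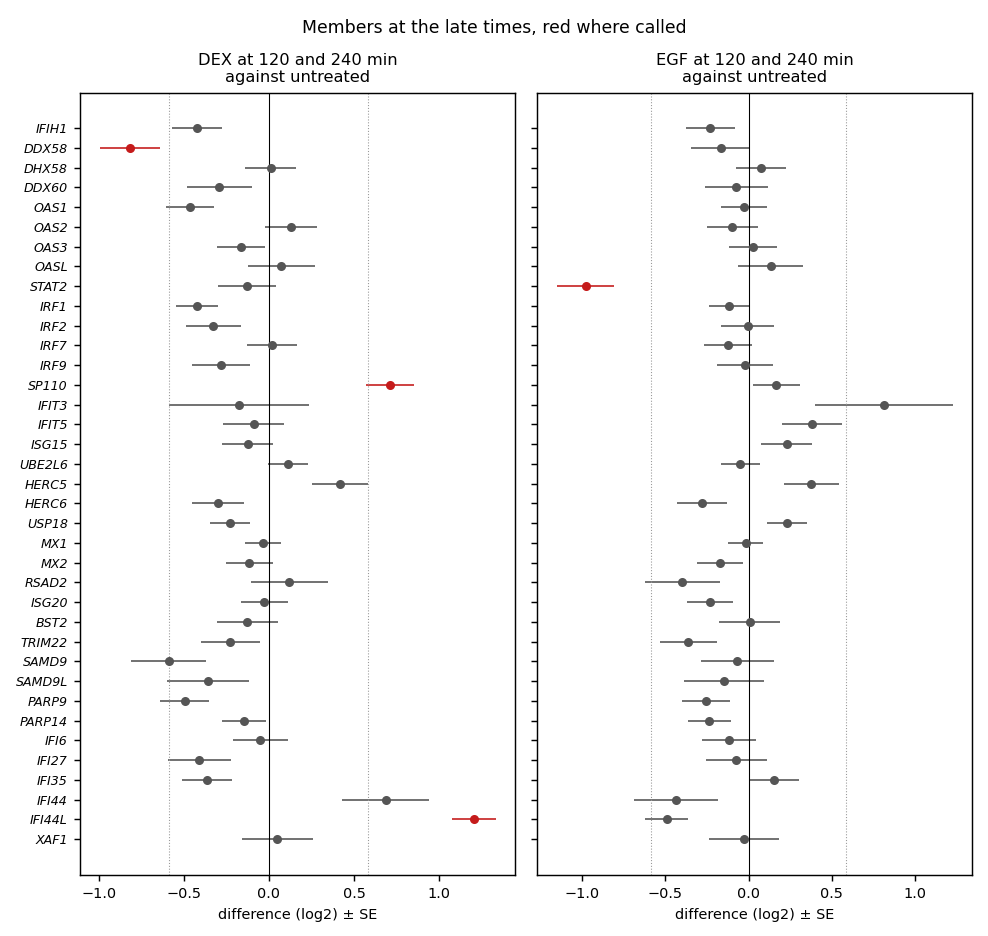
Difference of each measured member (rows) at 120 and 240 min, in log2 units with its SE as bars, for DEX against untreated cells (left) and EGF against untreated cells (right), with called members in red and dotted lines at 1.5-fold. IFI44L, SP110 and DDX58 are called with DEX, and STAT2 with EGF.

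At matched times the comparison of EGF+DEX with EGF asks what the glucocorticoid does while EGF is present. Over all 5 times, EGF+DEX was 0.39 ± 0.07 above EGF for IFI44L (adjusted p = 0.00205), under the fold minimum, and 0.53 ± 0.07 below DEX (adjusted p = 2.64e-04), also under it. Over 120 and 240 min, EGF+DEX was 0.88 ± 0.13 above EGF (adjusted p = 6.72e-04), the 1 member called of 37, where 2.30% of all genes were called (0.964% higher, 1.33% lower). The difference between EGF+DEX and EGF was 0.82 ± 0.15 larger at 120 and 240 min than at 20 to 60 min (adjusted p = 0.0135), again the 1 member called, where 0.608% of all genes were called (0.373% higher, 0.235% lower). Each of these late calls was lost without either 240 min array, when the late difference was 0.65 ± 0.18 (adjusted p = 0.123) and the late minus early difference 0.59 ± 0.20 (adjusted p = 0.507).

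Probesets along the gene moved together. All 21 IFI44L probesets were higher at the late times of DEX, and the 17 above background rose by 0.81 to 2.21 on the log2 scale (median 1.13). With EGF+DEX, 18 of the 21 were higher (median 0.26 over the 17 bright ones), and with EGF 4 of the 21 (median -0.39). Probesets of 1 gene share the same RNA and are not replicates.

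**Figure D5:**
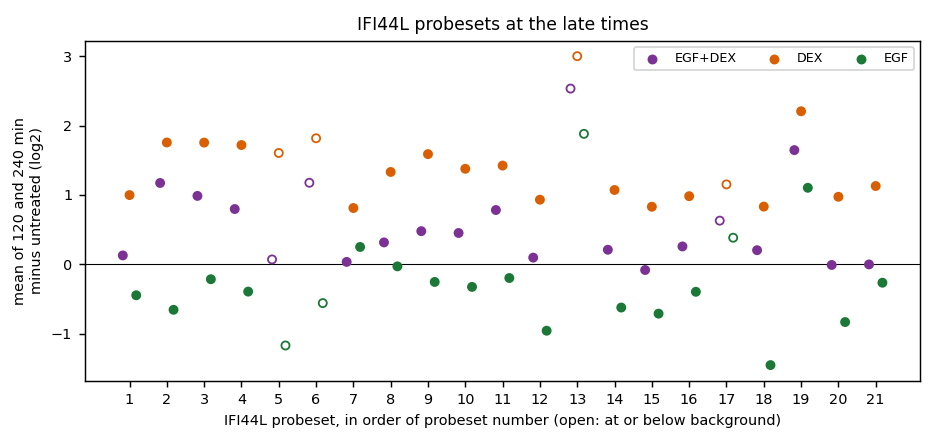
Mean of 120 and 240 min minus the untreated mean (log2) for each of the 21 IFI44L probesets in order of probeset number, with filled points for probesets above background and open points for the rest, for EGF+DEX, DEX and EGF. Every DEX point lies above 0, and 15 of the 17 filled EGF points lie below it.

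IFI44, the adjacent gene, whose promoter window lies at chr1:78649539-78649838 on the plus strand, did not pass. It read 5.55 with DEX at 120 min and 6.32 at 240 min, 4.85 and 5.53 with EGF+DEX, and 5.09 and 4.55 with EGF, against 5.25 and 5.25 in untreated cells. The DEX array of 240 min was the highest of the 26, and its 2 lowest arrays, both with EGF, were at or below background. The difference at 240 min of DEX was 1.07 ± 0.31 (adjusted p = 0.198 over all times), and over 120 and 240 min it was 0.69 ± 0.25 (adjusted p = 0.134). IFI6, IFI27, IFI35 and XAF1, the other 4 interferon-inducible members without an assigned role here, had mean differences of -0.25 to -0.06 with DEX and of -0.29 to 0.14 with EGF+DEX.

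Between the 2 treatments with DEX, no member was called. The comparison of EGF+DEX with DEX at matched times had 7 of 37 members with an unadjusted p under 0.05 and 3 with an adjusted p under 0.05 (IFI44L, ISG15 and STAT2) that missed 1.5-fold. Of all genes 17.1% had an unadjusted p under 0.05 and 3.14% an adjusted p under 0.05, and 0.361% were called (0.289% higher, 0.0723% lower). Limma with a variance trend and robust fit called 0 members as well. Against EGF, 9 members (24.3%) had an adjusted p under 0.05, near the 20.3% of all genes that did. Of the 9, 8 missed the fold minimum: ISG15, ISG20, RSAD2, IFI44L and SP110 were the 5 with positive values, and DDX58, IRF1 and USP18 the 3 with negative ones. The median difference of members was -0.11 for EGF+DEX against EGF and -0.03 for EGF+DEX against DEX, beside -0.05 and 0.00 over all genes.

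Other genes of the interferon pathway were read from lists, whose counts rest on 3 genes or fewer in each comparison and give no result about a list. Of 21 interferon ligand genes 2 reached 3 bright probesets, IFNE, an interferon of epithelia, and IL29 (interferon lambda), and IFNB1, the interferon that infected epithelial cells make first, had 0 of 4 probesets above background. IFNE read 5.06 and 4.94 with EGF+DEX at 120 and 240 min, 4.67 and 4.30 with DEX, and 7.07 and 5.65 with EGF, against 5.77 and 5.21 in untreated cells. A single EGF array, that of 120 min, stood above all others. IFNE was called higher with EGF (1.58 at 120 min, adjusted p = 0.0301 over all times). It was called lower with DEX (adjusted p = 0.0222 over all times). There the array of 240 min and replicate 2 of 60 min lay below background and give only a bound, so that no size is given. EGF+DEX was 0.78 ± 0.13 below EGF (adjusted p = 0.00108), with 1 of its 8 arrays below background.

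Of 11 receptor and JAK-STAT genes 10 were measured. JAK2, a kinase of the interferon gamma receptor, read 6.45 and 6.83 with EGF+DEX at 120 and 240 min and 6.59 and 6.08 with DEX, against 5.93 and 5.74 with EGF and 5.74 and 5.62 in untreated cells. Both DEX treatments lay above both others at these times. JAK2 rose with EGF+DEX (1.15 at 240 min, adjusted p = 0.00159 over all times) and with DEX over 120 and 240 min (0.66 ± 0.16, adjusted p = 0.0254). At matched late times, with 1 array per treatment and time, EGF+DEX was 0.81 ± 0.16 above EGF for JAK2 (adjusted p = 0.00970). IFNGR2, a chain of the same receptor, fell with DEX (-0.80 at 240 min, adjusted p = 0.0163 over all times). Among 10 negative regulators, PIAS1, a SUMO ligase, rose with DEX (1.10 at 240 min, adjusted p = 0.0106 over all times) and EGF+DEX (1.16 at 240 min, adjusted p = 0.0124 over all times), and the other 9 were not called against untreated cells. At 120 and 240 min EGF+DEX was 0.97 ± 0.17 above EGF for PIAS1 (adjusted p = 0.00315).

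Of other interferon-inducible genes, 28 of 32 were measured. With DEX over all times 3 were called lower and 0 higher (1.92% and 1.62% of all genes). With EGF+DEX 2 were lower and 1 higher (2.48% and 2.39% of all genes). With EGF 0 were called in limma (0.729% of all genes), and 4 of the 28 had an unadjusted p under 0.05, against 10.9% of all genes. TNFSF10, the death ligand TRAIL, read 6.89 and 6.41 with EGF+DEX at 120 and 240 min, 7.70 and 7.24 with DEX, and 8.02 and 7.29 with EGF, against 9.21 and 9.21 in untreated cells. It fell under each treatment at these times: -2.80 ± 0.33 at 240 min of EGF+DEX (6.96-fold lower, adjusted p = 6.39e-05 over all times), -1.97 ± 0.33 at 240 min of DEX (adjusted p = 0.00428 over all times) and -1.56 ± 0.27 over 120 and 240 min of EGF (adjusted p = 0.00672). The guanylate-binding proteins GBP1 (-0.78) and GBP3 (-1.0) fell with DEX, with these largest differences at 240 min (adjusted p = 0.0476 and 0.0419 over all times). At 20, 40 and 60 min of DEX, GBP1 differed by -0.40, -0.0006 and -0.50, and GBP3 by -0.36, 0.02 and -0.49. The cause of the smaller difference at 40 min was not tested. GBP2 fell with EGF+DEX (-1.27 at 120 min, adjusted p = 0.00532 over all times). Over 120 and 240 min GBP2 was also called lower with DEX (-0.85 ± 0.22, adjusted p = 0.0325). PNPT1, an RNA-processing enzyme of mitochondria, was the 1 higher gene (0.84 at 240 min of EGF+DEX, adjusted p = 0.0302 over all times). Of 13 measured genes of nucleic acid sensing and induction (16 listed), IKBKE, a kinase that activates IRF3, fell with EGF+DEX (-0.62 at 240 min, adjusted p = 0.0330 over all times). None was called with DEX, where 3 of the 13 had an unadjusted p under 0.05, against 17.9% of all genes.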

How the data were processed

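RNA of 26 MCF10A samples was measured on Affymetrix Human Exon 1.0 ST arrays, 1 array each. The authors deposited 1 linear intensity per probeset and array (844005 probesets, 1 to 19500). How probesets were summarised and corrected for background, and in which batches arrays were scanned, is not given in the sources used here. Quartiles of log2 values agreed between arrays within 0.10, so that no further normalization was applied in the main setting. The platform annotation gave 1 symbol to 354421 probesets, several to 14891 and none to 474693, and those with several or none were not used for genes. Probesets with a mean above 4.65, the median of probesets without a gene, were kept (262233, or 74.0% of single-symbol probesets), and genes with at least 3 were summarised by Tukey's median polish of log2 values (16600 genes). Dim probesets compress differences, and no depth applies to arrays, whose number limits the precision.

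A model of 16 group means was fitted with limma 3.58.1 in R 4.3.3 (10 residual degrees of freedom, so that a lone array was assumed to vary like the replicated groups), with a moderated F-test over the 5 times against untreated and moderated tests of averaged differences elsewhere. P-values were adjusted over all 16600 genes by the Benjamini-Hochberg method, and a call needed an adjusted p under 0.05 and 1.5-fold. Labels do not say whether replicates were separate cultures, so that p-values measure only the spread between these arrays. Scripts were tested on simulated data.

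Members, roles, gene lists and motifs were chosen with earlier results of these data known. Genes were named where called in at least 1 comparison or at the ends of the mean levels; genes of other lists where called or where a count was 5 or fewer, and IFI44, IRF1 and others beside them were chosen after their values were seen. Alternatives were a block for replicate number, the brightness filter dropped or raised to 5.97, quantile normalization, means in place of median polish, limma's variance trend with robust estimation, the fold minimum dropped or raised to 2-fold, and each array left out in turn, with gene levels kept as they were. Promoter windows were read from RefSeq (GRCh38.p14) with Python 3.11.15, and no array coordinates were used. Figures used matplotlib 3.10.9.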

Additional observations from a re-analysis of the deposited data

Results flagged for a closer look

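One result was picked out because an effect differed between times by a test of the difference itself. The difference of EGF+DEX from EGF in IFI44L was 0.82 ± 0.15 (SE, log2) larger at 120 and 240 min than at 20, 40 and 60 min (adjusted p = 0.0135 in limma, over all 16600 genes). IFI44L read 7.09 and 7.76 with EGF+DEX at the late times, against 6.44 and 6.65 with EGF. Each late time has 1 array per treatment, and without either 240 min array the value was 0.59 ± 0.20 (adjusted p = 0.507). No group held the 4 arrays that a check for a single distant array needs.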

How the results depend on the processing

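Whether the replicate numbers pair the arrays could not be settled, and the main model did not use them. Over 45 pairs of groups, deviations from the group means correlated between -0.20 and 0.31 (12 over 0.1). Of 10 groups, 7 correlated best with their own number, so that a partial pairing remains possible. With the replicate number as a block, 2 members (IFI44L and IFIT3) were called for EGF+DEX against EGF at 120 and 240 min in place of 1, and 4 (IFI44L, STAT2, IFIT3 and SAMD9L) for EGF+DEX against untreated in place of 3, with SP110 lost (adjusted p = 0.0508). The block changed no other call of a member. Against untreated cells, calls over all genes were 133 in place of 121 for EGF, 627 in place of 588 for DEX and 891 in place of 808 for EGF+DEX.

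For EGF against untreated, 1 member (STAT2) was called with the stricter brightness filter, quantile normalization, or limma with trend and robust options, in place of 0. For EGF+DEX against EGF, 0 were called with no brightness filter, the stricter filter, quantile normalization or a 2-fold minimum, in place of 1, and 9 with no fold minimum. With no fold minimum, 3 were called for EGF+DEX against DEX and 2 for EGF+DEX against EGF at 120 and 240 min; with means of probesets the count for EGF+DEX against EGF at 120 and 240 min was also 2. A 2-fold minimum left 1 for EGF+DEX against untreated, 1 for DEX at 120 and 240 min, and 0 for EGF at 120 and 240 min, EGF+DEX against EGF at 120 and 240 min and the late minus early difference. The fold settings act by construction, as does the loss of IFIT3 with the stricter filter, where it had 1 probeset of the 3 needed, and the cause of the others was not tested. Over all genes, no fold minimum gave 3374 calls in place of 125 for EGF+DEX against EGF and 521 in place of 60 for EGF+DEX against DEX. A 2-fold minimum gave 71 in place of 121 for EGF, 270 in place of 588 for DEX, 361 in place of 808 for EGF+DEX, 25 in place of 125 for EGF+DEX against EGF, 14 in place of 60 for EGF+DEX against DEX, 94 in place of 381 for EGF+DEX against EGF at 120 and 240 min, 151 in place of 610 for DEX and 43 in place of 234 for EGF at those times, and 42 in place of 101 for the late minus early difference.

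Leaving out 1 array at a time, members called ranged from 0 to 1 for EGF against untreated, 1 to 4 for DEX, 1 to 4 for EGF+DEX, 0 to 1 for EGF+DEX against EGF, 0 to 2 for EGF+DEX against EGF at 120 and 240 min, 1 to 5 for DEX at 120 and 240 min, 0 to 1 for EGF at 120 and 240 min and 0 to 1 for the late minus early difference; EGF+DEX against DEX stayed at 0. Calls over all genes also changed with the array left out in every comparison, so that these ranges give no result particular to the members. The largest difference of IFI44L for EGF+DEX against untreated turned to -0.33 without the EGF+DEX array of 240 min, within a range of -0.33 to 0.88 over the arrays left out. IFI44L with DEX, over all and over late times, and STAT2 with EGF+DEX kept their calls in all 34 settings. Late times had 1 array per treatment and untreated cells had 2, which limits every late call.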
